A study of Mus musculus with 48 samples.

Results

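The collagen genes of the mouse were followed through mouse tumors made with Myc as a model of medulloblastoma of Group 3, a malignant childhood tumor of the cerebellum. The members were all genes of the count tables whose symbol is Col, a number, a and a number and nothing more. This rule, which uses no measured value, found 43 of 34590 genes. They were sorted by the structures their proteins form into 11 fibrillar, 6 basement membrane network, 6 beaded filament, 9 fibril-associated, 3 short-chain network, 4 transmembrane and 2 multiplexin collagens, with Col7a1 and Col28a1 left as other.

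Collagens are secreted matrix proteins built from chains that wind around each other as a helix. Fibrillar collagens assemble into cables, fibril-associated collagens sit on their surface, type IV collagens form the sheet of basement membranes around vessels and at the brain surface, and type VI collagens form beaded filaments in the matrix around cells. In the healthy brain most collagen RNA is known to come from the meninges and the cells of the vessel wall, and neurons make little. Ezh2 is the enzyme of the Polycomb complex that methylates histone H3 to keep genes silent, and Gfi1 is a zinc finger protein that represses transcription.

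RNA was sequenced from 48 libraries in 13 groups. All cells carried overexpressed Myc, and 44 libraries have the labelled genotype p53-/-;p18-/-. Per the labels, cells grown as tumorspheres were infected with retroviral vectors, sorted by fluorescent reporters and placed with Matrigel, itself a basement membrane extract, in the cerebral cortex of CD-1 nu/nu mice. A first set held the lines 19251, 19554 and 19568 with a Cas9 vector alone (Cas9) or with Ezh2 knocked out (Ezh2 KO), 3 libraries of each. A second set held line 19568 with Cas9, Ezh2 KO, Ezh2 overexpression (Ezh2 OE), or both Ezh2 KO and Ezh2 OE (called the rescue), 3 of each. The Gfi1 experiment held 6 control and 8 Gfi1 overexpressing (Gfi1 OE) libraries of line 19251, and 4 libraries labelled as wild-type granule neural precursors with Myc and Gfi1. The labels do not say whether the libraries of a group come from separate mice, so p-values measure the spread between libraries. Host and tumor are both mouse, and in such bulk RNA fewer cells of a type and less RNA per cell cannot be told apart.

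Counts on genes ran from 2687637 to 94733131 per library. In line 19568 Ezh2 RNA was lower in all 3 set 1 Ezh2 KO libraries (37.98 to 48.73 CPM, counts scaled to a common library total) than in Cas9 (67.97 to 83.39), and in lines 19251 and 19554 the ranges overlapped. In set 2 the library labelled Cas9 replicate 1 held Ezh2 at 5128 CPM and the one labelled rescue replicate 3 at 101 CPM. The number in the title of each is that of the other's file, and both were left out of the tests of set 2. Rescue replicate 2 is described in 1 label as Ezh2 overexpression without the knockout, against its title and its other label. It was kept as the rescue, with Ezh2 at 6576 CPM beside 5037 in rescue replicate 1 and 1804 to 2526 in Ezh2 OE. Gfi1 stood at 106.7 to 591.6 CPM in Gfi1 OE, and at 0.23 to 0.83 CPM in the 4 libraries labelled with Gfi1, so that these are called the WT-labelled libraries throughout. The set 1 library 19251 Cas9 replicate 1 had a summed level of 6 cell cycle genes of 12.9 CPM, against 2287 and 2612 in the other replicates of its group, and a rank correlation with them of 0.75. Gfi1 OE replicate 5 was the shallowest library, with 71.55% of its reads unaligned.

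The sum over the 43 collagen genes was highest in line 19568 and in the WT-labelled libraries, with overlap from Gfi1 OE. In line 19568 it ran from 3749 to 10430 CPM over 18 libraries of both sets, and in the WT-labelled libraries it was 6723, 6478, 7065 and 7260 CPM. In the 12 set 1 libraries of lines 19251 and 19554 it ran from 412.7 to 2419 CPM, and in the controls of the Gfi1 experiment from 687.3 to 1843 CPM. The lowest library of line 19568 thus held a larger collagen sum than any of these set 1 and control libraries. In the 8 Gfi1 OE libraries the sum ran from 895.9 to 5156 CPM, where replicate 5 (5156) reached the range of line 19568 and replicate 7 (2605) lay between. Col3a1 (type III fibrils of soft tissue and vessel walls), Col4a1 and Col4a2 (the chains of the common basement membrane network) made up 66.58% to 75.55% of the collagen counts in the 6 set 1 libraries of line 19568, 33.85% to 45.58% in 19251 Cas9, 47.47% to 50.51% in 19251 Ezh2 KO, 12.88% to 38.49% in 19554 Cas9 and 68.97% to 73.14% in 19554 Ezh2 KO. The share in 19554 Ezh2 KO was thus like that of 19568, at a lower sum.

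**Figure D1:**
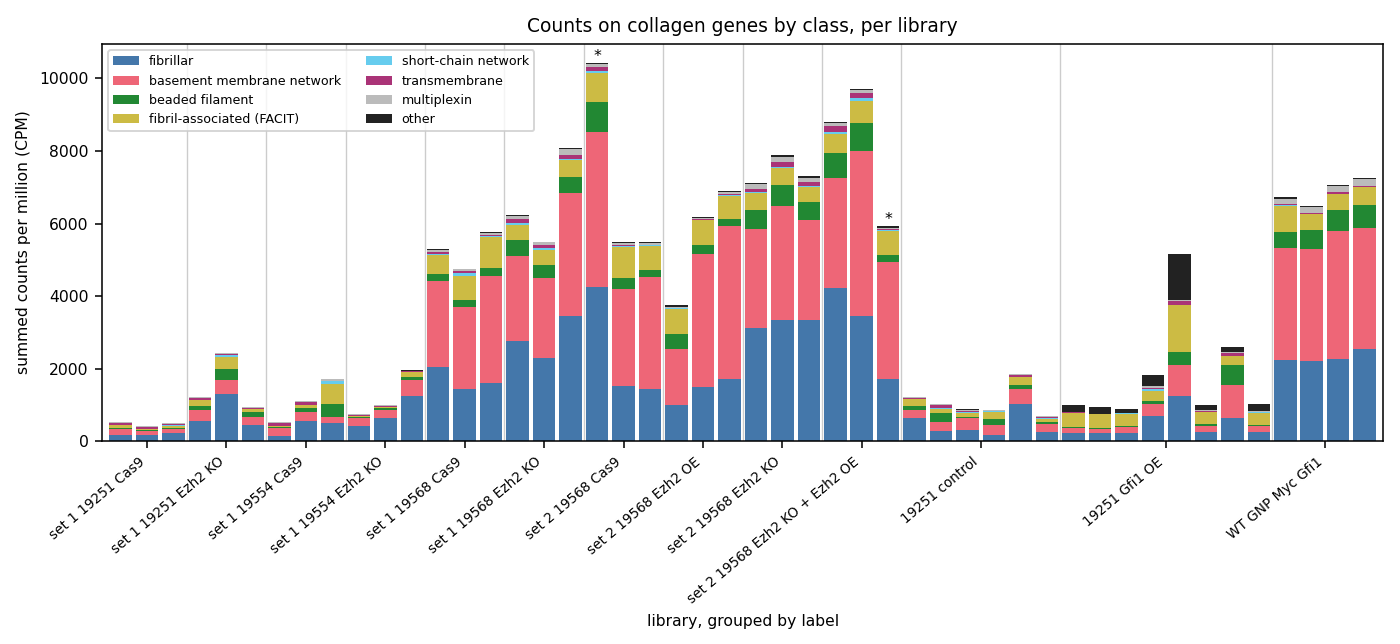
Summed CPM of the collagen genes in each library, stacked by collagen class, with libraries grouped by label on the x axis and an asterisk on the 2 set 2 libraries left out of tests. All libraries of line 19568 (3749 to 10430 CPM) and the WT-labelled libraries (6478 to 7260 CPM) stand above the set 1 libraries of lines 19251 and 19554, and basement membrane and fibrillar collagens fill most of each high bar.

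Of the 43 members, 20 had at least 1 CPM in all 48 libraries. Near the floor stayed 3 chains: Col4a3 and Col4a4, which form the special basement membrane of the kidney filter, reached 1 CPM in 2 libraries each, and Col6a5, a type VI chain, in 4. Compared per kilobase of exon, Col4a1 led in 19568 Cas9 of set 1 with a mean of 286.7 CPM per kb, ahead of Col3a1 with 216.0 and Col4a2 with 97.1. In 19251 Cas9 the order was Col3a1 with 12.2, Col4a1 with 11.3 and Col4a2 with 6.73 CPM per kb, and the first pair did not differ beyond their spread.

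**Figure D2:**
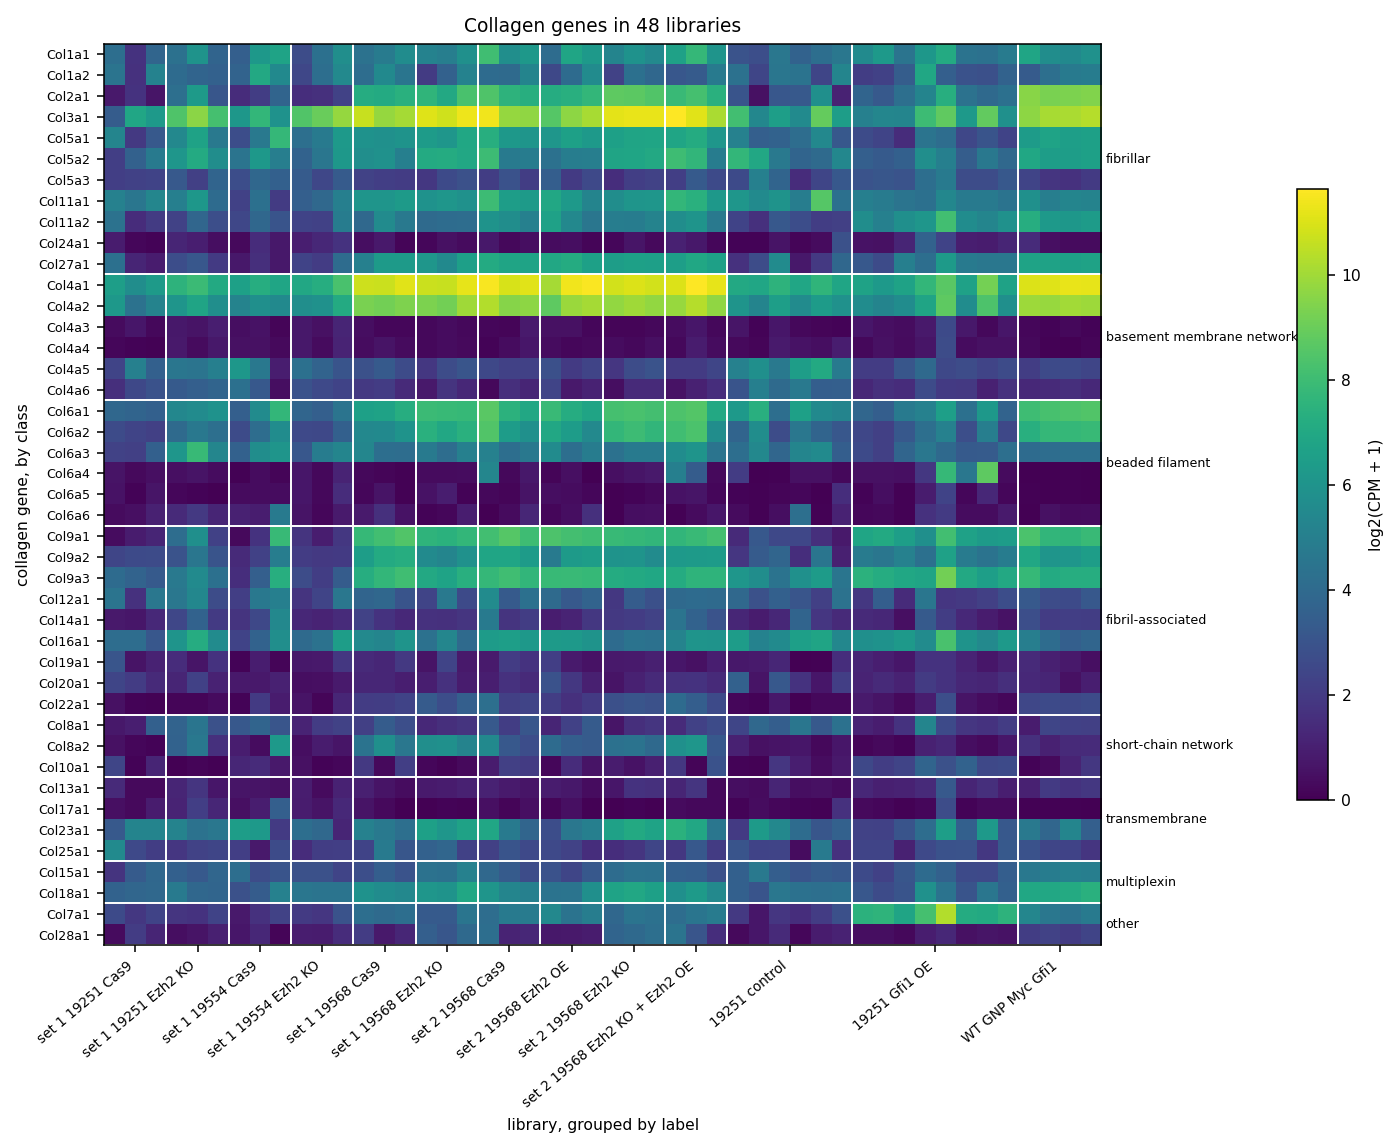
Level of each collagen gene (rows, by class) in each library (columns, by group) as log2(CPM + 1). Col3a1, Col4a1 and Col4a2 are bright in line 19568 and in the WT-labelled libraries, Col9a1 and Col9a3 are dim in most 19251 and 19554 libraries without Gfi1 OE, and Col7a1 is bright in the 8 Gfi1 OE libraries.

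Chains that join in the same protein kept their proportions to different degrees. Col4a1 and Col4a2 start on opposite strands, with start sites 21 bases apart in RefSeq (GRCm38.p6). Per kilobase, the Col4a1 to Col4a2 ratio ran from 0.914 to 3.24 over the 48 libraries with a median of 2.28. The level of Col4a1 itself ran from 51.3 to 3220 CPM. The lowest ratios were 0.914 in Gfi1 OE replicate 5 and 1.21 in set 1 19251 Cas9 replicate 1. Next came 1.68 in Gfi1 OE replicate 7. The ratio of Col1a1 to Col1a2, the chains of type I collagen, the main collagen of skin and bone, ran from 0.324 to 21.3. It reached 21.3 in rescue replicate 2, with 215 CPM of Col1a1 and 9.11 CPM of Col1a2, so the chains of type I did not keep a fixed proportion in the RNA. Col6a1 and Col6a2, neighbours on chromosome 10 that encode chains of type VI, held a ratio of 1.65 to 9.10. The ratio of Col9a1 to Col9a3, chains of the type IX collagen on cartilage fibrils, was 0.869 to 1.25 in line 19568, 0.957 to 1.17 in the WT-labelled libraries and 0.0172 to 0.174 in the 19251 controls.

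**Figure D3:**
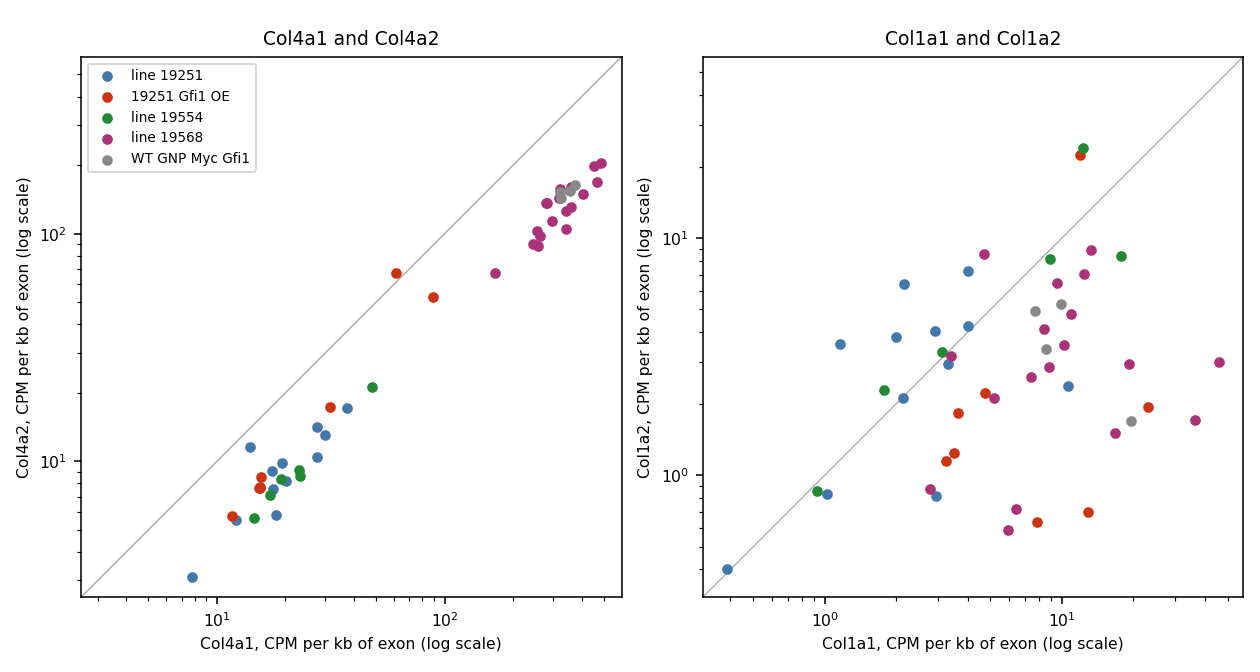
Level of paired chains per kilobase of exon in the 48 libraries, both axes on a log scale, colored by line, with a grey line at equal levels. Col4a1 and Col4a2 lie along a band (ratio 0.914 to 3.24), and Col1a1 and Col1a2 scatter (ratio 0.324 to 21.3).

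The 3 tumor lines were compared within the Cas9 libraries and again within the Ezh2 KO libraries of set 1. Differences between lines were tested with edgeR's quasi-likelihood F-test over all genes with Benjamini-Hochberg adjustment, and a gene is called here where its adjusted p is below 0.05. In Cas9, 13 of the 43 collagen genes were called, where 7.24% of all 18514 tested genes were called. At an unadjusted p under 0.05 there were 22, beside 31% of all genes. Col4a1 was 1733, 1702 and 2254 CPM in 19568, against 92.3, 51.3 and 80.1 in 19251 and 96.5, 154 and 114 in 19554. Every library of 19568 lay above every library of the other lines. The largest difference between lines was 4.59 on the log2 scale, with an adjusted p of 1.488e-05.

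Col2a1, the main fibrillar collagen of cartilage, was 146, 139 and 166 CPM in 19568, 0.757, 2.25 and 0.573 in 19251 and 1.80, 3.33 and 12.4 in 19554. Its groups did not overlap between 19568 and the other lines, and the largest difference was 6.99 on the log2 scale (adjusted p = 0.000914, edgeR). Col3a1 was 1634, 893 and 1078 CPM in 19568, 9.35, 117 and 77.7 in 19251 and 71.6, 210 and 61.2 in 19554, with a largest difference of 4.18 (adjusted p = 0.00437, edgeR). Here too all libraries of 19568 were the highest, and the lowest value belonged to the 19251 library with few cell cycle counts. Col4a2 differed by 3.76, Col9a2, another type IX chain, by 4.63 and Col27a1, a fibrillar collagen of cartilage, by 5.83.

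In Col9a1 and Col14a1 the libraries of line 19554 disagreed among themselves. Col9a1 was 224, 277 and 357 CPM in 19568, below 1.4 CPM in the 3 libraries of 19251, and 0.213, 2.21 and 232 in 19554. The last of these, 19554 Cas9 replicate 3, reached the level of 19568, and its Col8a2 (78.7 CPM), Col6a6 (26.1), Col5a1 (217) and Col14a1 (42.5) were higher than in any other set 1 library. Col9a1 differed by 8.39, and its call was kept in 5 of 18 fits that each left out 1 library. Col14a1, a collagen on the fibril surface, differed by 4.04, and by 1.83 with no call without that 19554 library. The other 5 called members were Col6a2 (3.43), Col6a1 (3.19), Col11a1 (3.08), Col7a1 (2.86) and Col18a1 (1.91). Leaving out that library and 19251 Cas9 replicate 1 together raised the count from 13 to 20 members. Leaving out 19568 Cas9 replicate 1, 2 or 3 lowered it to 8, 7 and 6.

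In the Ezh2 KO libraries, 9 of 43 members differed between the lines, against 3.57% of all genes. Col6a2 was 167, 124 and 167 CPM in 19568, 15.5, 24.5 and 17.8 in 19251 and 4.88, 4.75 and 10.96 in 19554, a largest difference of 4.45 (adjusted p = 0.00136, edgeR). The 3 groups did not overlap. Col6a1 (3.92), Col4a1 (3.45), Col4a2 (3.41), Col2a1 (6.36), Col9a2 (3.96), Col22a1 (5.77), Col28a1 (4.20) and Col18a1 (2.36) were called as well. Col22a1 is a fibril-associated collagen of tissue junctions, and Col18a1 carries the fragment endostatin at its end. Without 19251 Cas9 replicate 1 the count was 15, without 19554 Cas9 replicate 3 it was 16, and without 19568 Ezh2 KO replicate 1 or 3 it was 5.

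Markers of other cell types were summed in the same libraries. In Cas9 the summed level of 8 fibroblast and meninges markers was 187.0 to 230.8 CPM in 19568, 14.6 to 116.4 in 19251 and 18.7 to 137.4 in 19554, so that, as for Col4a1, 19568 did not overlap with the other lines. The highest of the 19554 values was that of Cas9 replicate 3. In Ezh2 KO these markers summed to 189.2 to 244.5 CPM in 19568, 87.2 to 248.2 in 19251 and 11.5 to 161.7 in 19554. No marker of this list was at 0 in any group. The 8 pericyte and smooth muscle markers summed to 105.0 to 172.3 CPM in 19568 and 76.8 to 526.4 in the other lines, and 8 endothelial markers to 72.9 to 136.9 and 41.6 to 169.5. Oligodendrocyte markers were higher in 19568 than in 19554, at 280.0 to 1786 CPM against 25.8 to 98.5 in Cas9, and overlapped with 19251. The same held for astrocyte markers, at 577.3 to 918.3 CPM in 19568 Cas9 against 278.2 to 284.3 in 19554, and for those of cortical neurons, at 73.2 to 89.7 against 7.89 to 47.1. For these 2 lists the overlap with 19251 came from Cas9 replicate 1 alone (3494 and 487.4 CPM). The 8 granule neuron progenitor markers were lower in 19568, at 49.1 to 94.0 CPM against 143.5 to 477.8 in the other lines outside the 19251 library with few cell cycle counts (41.3). Gli1, a target of hedgehog signalling, was 282.3 to 572.1 CPM in 19568 and at most 14.4 in the other lines. The part of these in the collagen levels was not tested.

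Among the other genes of collagen biology, 4 of 17 tested genes of biosynthesis and secretion differed between lines in Cas9, beside 7.24% of all genes. Their largest differences were in Creb3l1 (4.11), a transcription factor known to drive collagen secretion, Serpinh1 (3.16), the collagen chaperone, and Leprel1 (2.12), a prolyl hydroxylase. In the Ezh2 KO libraries 1 of 17 was called, Creb3l1 again (4.50), beside 3.57% of all genes. Of 16 basement membrane partners 3 were called in each comparison, Lamc3, Nid1 and Nid2, a laminin chain and the nidogens that link laminin to type IV collagen.

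The effect of Ezh2 KO was then tested in set 1. Over the 3 lines, with line as a term, 0 of 39 tested collagen genes were called (edgeR), where 0.413% of all genes were, 0.371% higher and 0.0425% lower. At an unadjusted p under 0.05 there were 4, against 8.06% of all genes. DESeq2 and limma-voom called 1 each. Col3a1 came closest. It was 346, 791 and 293 CPM in 19251 Ezh2 KO against 9.35, 117 and 77.7 in Cas9. In 19554 it was 353, 513 and 893 against 71.6, 210 and 61.2, and in 19568 it was 2164, 1770 and 2604 against 1634, 893 and 1078. All Ezh2 KO libraries lay above all Cas9 libraries of their own line. The log2 difference was 2.02 with an SE of 0.44 and an adjusted p of 0.0633 (edgeR), short of the threshold. The 39 members had a median log2 difference of 0.24 beside -0.06 over all genes tested.

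Within line 19251, 1 of 43 members was called, beside 0.259% of all genes. Col2a1 was 18, 79.9 and 7.62 CPM in Ezh2 KO and 0.757, 2.25 and 0.573 in Cas9, with no overlap, and the log2 rise was 4.79 (SE 0.93, adjusted p = 0.04997, edgeR). This call lies at the threshold. It was kept in 4 of 18 fits that left out 1 library, and it was lost without 19251 Cas9 replicate 1, the library with few cell cycle counts. In line 19554, 0 of 43 members were called (edgeR; 0.481% of all genes), with 13 at an unadjusted p under 0.05 (9.32% of all genes) and 6 in DESeq2. In line 19568, 0 of 43 were called (edgeR; 0.027% of all genes), with 5 at an unadjusted p under 0.05 (3.13% of all genes) and 0 in DESeq2. These tests within a line shared the estimate of the spread over all 18 libraries of set 1. When line 19568 was fitted alone, 3 members were called, Col5a2, Col6a2 and Col23a1, beside 1.08% of all genes in that fit. Their SEs were 0.228, 0.199 and 0.275 with the line alone, against 0.693, 0.575 and 0.939 with the shared spread.

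Whether the Ezh2 KO effect differed between the lines was tested directly, and 0 of 43 members were called (edgeR), beside 0.0162% of all genes. At an unadjusted p under 0.05 there were 18, against 9.71% of all genes, and DESeq2 called 7. Col8a2, a chain of the short-chain network of vessel walls and the cornea, shows the values behind this. In 19251 it was 11.8, 24.7 and 2.03 CPM in Ezh2 KO and 0.416, 0.141 and 0.079 in Cas9. In 19554 it was 0.366, 0.838 and 0.581 in Ezh2 KO and 0.884, 0.303 and 78.7 in Cas9. The Ezh2 KO libraries were the higher ones in 19251, and in 19554 the groups overlapped with 1 far library. None of the lists of other collagen biology genes had a called member in the Ezh2 KO comparisons of set 1.

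Set 2 repeated the knockout in line 19568 with other libraries. With the 2 libraries of contradictory number left out, which leaves 2 Cas9 libraries, 11 of 43 members were called between Ezh2 KO and Cas9, beside 9.1% of all genes. With all 12 libraries as labelled there were 2. Of the 11 called with the 2 libraries left out, 8 were higher in Ezh2 KO (5.88% of all genes) and 3 lower (3.23%). At an unadjusted p under 0.05 there were 21, beside 24.2% of all genes. The 43 members had a median log2 difference of -0.50, against 0.00 over all genes tested.

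Among the fibrillar collagens, Col5a2, a type V chain that starts fibrils, was 109, 114 and 130 CPM in Ezh2 KO and 26.8 and 28.7 in Cas9. It rose by a log2 value of 1.98 (SE 0.25, adjusted p = 0.00254, edgeR). Col2a1 was 430, 414 and 354 CPM against 183 and 157, a rise of 1.15 (SE 0.20). The groups of neither gene overlapped. Col5a2 kept its call in all 10 fits that left out 1 library. Col2a1 kept its call in 8 of these and lost it without Cas9 replicate 2 or 3. Col3a1, the neighbour of Col5a2 on chromosome 1, was 2279, 2425 and 2474 CPM against 896 and 844, with a log2 difference of 1.37 and an adjusted p of 0.0703 (edgeR).

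The type VI chains Col6a1 and Col6a2 rose, while Col6a3 was not called. Col6a3 was 19.2, 26.1 and 25.9 CPM in Ezh2 KO and 17.4 and 24.7 in Cas9. Col6a2 was 206, 249 and 204 CPM in Ezh2 KO and 86.3 and 56.3 in Cas9, a rise of 1.55 (SE 0.35, adjusted p = 0.0290, edgeR). Col6a1 was 297, 316 and 283 CPM against 177 and 128, a rise of 0.89 (SE 0.23, adjusted p = 0.0473, edgeR). Neither pair of groups overlapped, though the call of Col6a2 was lost in 5 of 10 fits that left out 1 library. Col28a1, a collagen related to type VI and known from peripheral nerve, showed the largest rise of the called members. It was 12.7, 15.1 and 18.3 CPM against 1.22 and 1.43, a rise of 3.41 (SE 0.45, adjusted p = 0.00323, edgeR).

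Col23a1, a transmembrane collagen, was 101, 135 and 108 CPM in Ezh2 KO and 27.0 and 13.1 in Cas9, a rise of 2.46 (SE 0.64, adjusted p = 0.0462, edgeR). Its groups did not overlap, and its call was kept in 2 of 10 fits that left out 1 library. Col15a1, a multiplexin of basement membranes, rose by 1.26 and Col8a2 by 1.31, with calls kept in 6 and 9 of these 10 fits. Col18a1, the other multiplexin, was 106, 127 and 96.4 CPM against 38.3 and 32.9, with a log2 difference of 1.54 and an adjusted p of 0.0562 (edgeR).

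The members that fell were all fibril-associated. Col16a1, known from fibrils of skin and cartilage, was 15.7, 20.9 and 19.1 CPM in Ezh2 KO and 91.4 and 73.1 in Cas9. It fell by a log2 value of 2.24 (SE 0.23, adjusted p = 0.00114, edgeR) and kept its call in all 10 fits that left out 1 library. Col9a3 fell by 0.90 and Col9a1 by 0.65, from 376 and 264 CPM to 227, 217 and 205. The type IV chains were not called: Col4a1 was 1846, 2129 and 1870 CPM against 1959 and 2267.

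All 11 members had the same sign in set 1, in other libraries of line 19568, where 96.1% of the 1570 genes called in set 2 and tested there had the same sign. Col16a1 was 19.5, 39.9 and 15.6 CPM in Ezh2 KO of set 1 and 43.7, 38.7 and 64.9 in Cas9, so here the groups overlapped. Col5a2 was 140, 144 and 126 CPM against 52.6, 59.3 and 32.1, with no overlap, and rose by 1.51 with line 19568 fitted alone (adjusted p = 0.0389, edgeR). Col6a2 rose by 1.63 and Col23a1 by 1.80 in that fit.

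**Figure D4:**
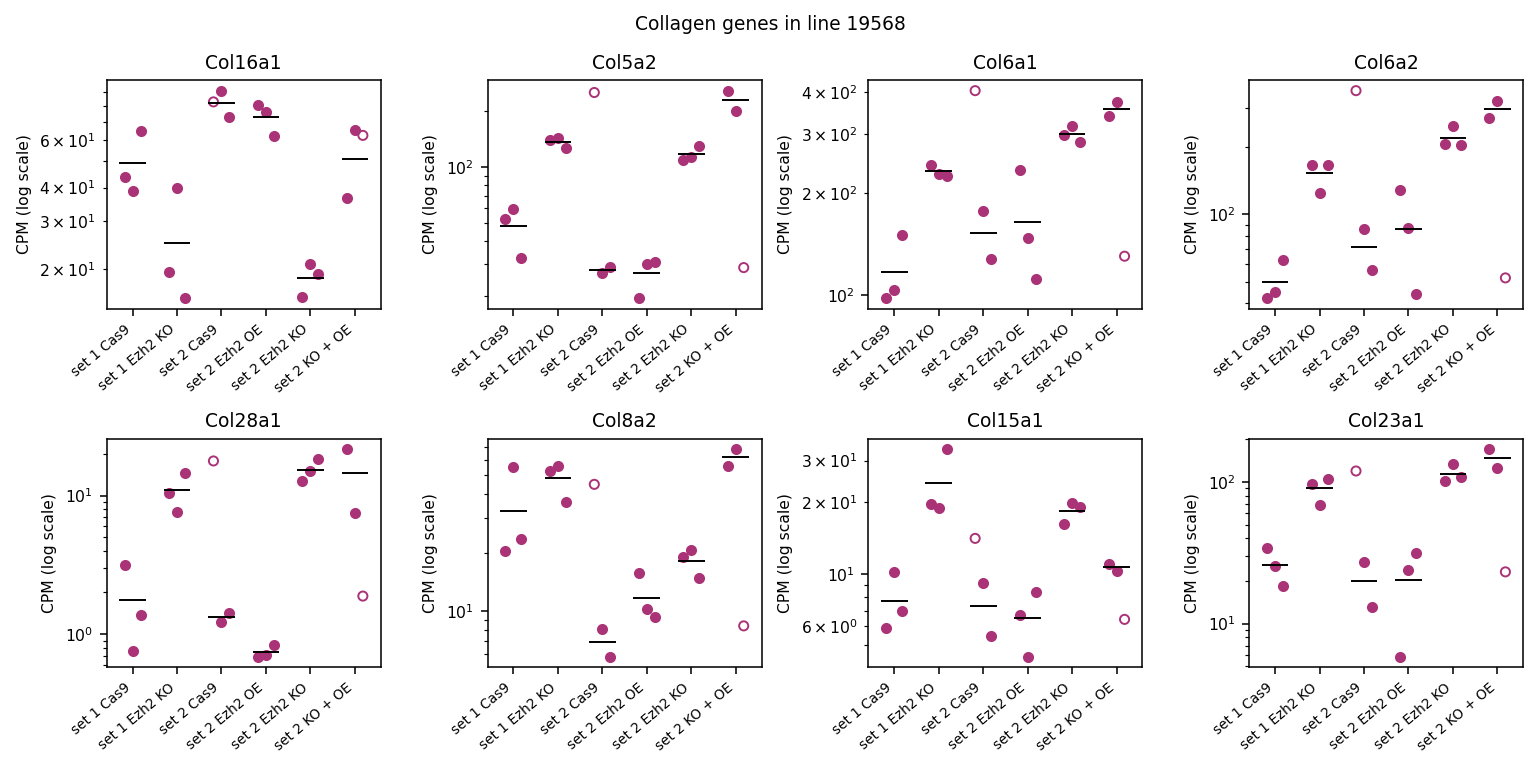
CPM (log scale) of 8 collagen genes in line 19568, each point a library, black bars the group mean, and open circles the set 2 libraries labelled Cas9 replicate 1 and rescue replicate 3, which are left out of the mean. Col5a2, Col6a1, Col6a2, Col28a1 and Col23a1 stand higher in Ezh2 KO than in Cas9 of both sets. Col16a1 stands lower in set 2 (15.7 to 20.9 against 73.1 and 91.4 CPM). The open circle of Cas9 lies with the rescue libraries for Col5a2. For Col28a1 it lies between the retained rescue libraries and within the range of set 2 Ezh2 KO.

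Between Ezh2 overexpression alone and Cas9, 0 of 43 members were called (edgeR), beside 0.00566% of all genes, which is 1 gene. At an unadjusted p under 0.05 there was 1 member, Col8a2 (0.73), against 2.82% of all genes, and DESeq2 called 0. Col4a1 shows the spread in these libraries, with 1098, 2681 and 3107 CPM in Ezh2 OE around the 1959 and 2267 CPM of Cas9.

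The rescue was compared with the knockout and with Cas9, which share libraries with the comparison above. Against Ezh2 KO, 4 of 43 members were called, beside 1.21% of all genes, and all were higher in the rescue (0.776% of all genes, with 0.43% lower). Col16a1 was 36.5 and 65.3 CPM in the rescue, above the 15.7 to 20.9 CPM of Ezh2 KO and below the 73.1 and 91.4 CPM of Cas9. It rose by a log2 value of 1.53 (SE 0.23, adjusted p = 0.0180, edgeR). Col8a2 rose further, to 55.9 and 68.3 CPM from 19.0, 20.6 and 14.8 in Ezh2 KO and 8.11 and 5.81 in Cas9, by 1.84 (SE 0.21, adjusted p = 0.00780, edgeR). Of the members called between Ezh2 KO and Cas9, both rescue libraries lay between the groups for Col16a1, Col2a1 (238 and 300.4 CPM) and Col15a1. Both lay above Ezh2 KO for Col8a2, Col5a2, Col6a1 and Col6a2, while for Col28a1, Col23a1, Col9a1 and Col9a3 the rescue libraries were not both above or both below the Ezh2 KO libraries.

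Col6a4, a further type VI chain, was 32.1 and 9.34 CPM in the rescue and at most 0.736 CPM in the Ezh2 KO, Ezh2 OE and retained Cas9 libraries of set 2. It rose by 5.23 on the log2 scale against Ezh2 KO (SE 0.91, adjusted p = 0.0336, edgeR). The left-out library labelled Cas9 replicate 1 held 39.4 CPM and the one labelled rescue replicate 3 held 0.222 CPM. Col14a1 was 21.6 and 11.7 CPM against 2.77, 3.22 and 3.95, a rise of 2.39 (adjusted p = 0.0465, edgeR). Without rescue replicate 2, the library whose labels disagree, none of the 4 calls was made, with the spread of the lone rescue library taken from the other groups. Without rescue replicate 1 there were 2, without Cas9 replicate 3 there were 2, without any 1 Ezh2 KO library there was 1, and without Ezh2 OE replicate 1 there were 9.

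Against Cas9, 11 of 43 members were called in the rescue, beside 7.79% of all genes, and all 11 were higher (5.14% of all genes, with 2.65% lower). Col5a2 was 259 and 200 CPM, a rise of 3.01 (SE 0.27, adjusted p = 0.00112, edgeR). Col28a1 rose by 3.39, Col23a1 by 2.89, Col6a2 by 2.04, Col22a1 by 1.67, Col6a4 by 5.40, Col8a2 by 3.15 and Col14a1 by 2.49. The other 3 were Col6a3 (1.39), Col6a1 (1.20) and Col5a1 (0.86). In these genes the 2 retained rescue libraries lay above the level of Cas9. Without rescue replicate 2 there were 6 calls and without replicate 1 there were 3.

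Markers of other cells were summed in these groups as well. Fibroblast and meninges markers summed to 371.5 and 314.2 CPM in the retained rescue libraries, 130.0 to 185.9 in Ezh2 KO and 163.3 and 182.5 in Cas9. Endothelial markers summed to 140.5 and 155.5 CPM in the rescue, 84.8 to 121.8 in Ezh2 KO and 62.0 and 81.1 in Cas9, and pericyte and smooth muscle markers to 158.0 to 193.2 in Ezh2 KO and 136.9 and 144.2 in Cas9, so that both lists were higher in Ezh2 KO than in Cas9 without overlap. The 5 choroid plexus markers summed to 185.8 CPM in rescue replicate 2 and to at most 1.72 CPM in rescue replicate 1, Ezh2 KO and Cas9. The part of these markers in the collagen values was not tested. With all 12 libraries as labelled, 1 member was called between rescue and Ezh2 KO and 0 between rescue and Cas9.

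Lists of other genes of collagen biology were counted in set 2, where 5.88% of all genes were higher and 3.23% lower in Ezh2 KO than in Cas9. Between these groups 5 of 15 tested basement membrane partners rose and 0 fell, with the laminin chains Lama3 (3.68) and Lama4 (1.09) and the nidogen Nid1 (2.43) the largest. Of 11 TGF-beta signalling genes 6 rose, led by the coreceptor Tgfbr3 (1.91), the ligand Tgfb1 (1.73) and the target Tgfbi (1.19). The target Ctgf fell (-1.84). Of 17 biosynthesis genes, with a share called near that of all genes, 1 rose (Leprel1, 1.56) and 1 fell (Ppib, -0.52). Of 9 breakdown genes 2 rose, the collagen-cleaving proteases Ctsk (1.12) and Mmp14 (1.11), and of 10 receptors 2 rose, Ddr2 (0.84) and Mrc2 (0.74). Of 12 genes of propeptide removal and crosslinking 1 fell (Pcolce, -0.44), again near the share of all genes. Of 12 fibril partners 2 rose, Fbn1 (0.55) and Fbn2 (0.52). Against Cas9, where 5.14% of all genes were higher, the rescue had 5 of 9 breakdown genes higher, led by Mmp9 (4.03), Ctsk (1.71) and Mmp14 (1.68), and 6 of 15 basement membrane partners, led by Lama2 (3.57).

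Gfi1 overexpression in line 19251 was compared with the control vector. Of 41 tested members 12 were called, beside 24.6% of all genes, 9 of them higher (11.1% of all genes) and 3 lower (13.5%). The count of 12 is 29.3% of the tested members. In fits that each left out 1 of the 14 libraries the 8 largest of these calls were kept every time.

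Col7a1, which forms the anchoring fibrils that fasten the epidermis to the dermis, had the largest change. It ran from 110 to 1252 CPM with a median of 180 in the 8 Gfi1 OE libraries, and from 0.637 to 6.22 CPM with a median of 2.68 in the 6 controls. The lowest Gfi1 OE library lay far above the highest control. Col7a1 rose by a log2 value of 7.10 (SE 0.87, adjusted p = 5.175e-05, edgeR), and by at least 6.07 in every fit that left out 1 library. Its highest value, 1252 CPM, came from Gfi1 OE replicate 5, the shallowest library.

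All 3 type IX chains rose. Col9a1 ran from 55.6 to 279 CPM with a median of 96.8 in Gfi1 OE and from 0.752 to 8.30 with a median of 3.28 in the controls, without overlap, a rise of 5.17 (SE 0.61, adjusted p = 3.955e-05, edgeR). Col9a3 was 91.2 to 571 CPM with a median of 130 against 20.7 to 83.9 with a median of 53.8, a rise of 2.08, again without overlap. Col9a2 was 19.0 to 102 CPM against 1.03 to 22.4, a rise of 2.28, and its groups overlapped. The ratio of Col9a1 to Col9a3 per kilobase moved from at most 0.174 in the controls to 0.363 to 0.660 in Gfi1 OE.

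Other members rose as well. Col11a2, a chain of the type XI collagen inside cartilage fibrils, ran from 33.1 to 282 CPM with a median of 53.0 against 2.02 to 8.16 with a median of 3.85, a rise of 4.40 (SE 0.64, adjusted p = 0.000200, edgeR). Col10a1, known from hypertrophic cartilage, ran from 3.34 to 12.5 CPM against 0.0354 to 2.64, a rise of 3.22 (SE 0.74, adjusted p = 0.00534, edgeR). Neither gene overlapped between the groups. In the set 1 Cas9 libraries of line 19251, Col10a1 was 4.35, 0.0938 and 1.28 CPM. The first of these values, from the library with few cell cycle counts, lies within the range of Gfi1 OE. Col2a1, the main cartilage collagen, was not called, with 8.69 to 157 CPM against 0.443 to 54.1. Col1a1 rose by 2.03, from 6.05 to 23.9 CPM in the controls to 19.2 to 137, and Col13a1, a transmembrane collagen, by 2.29.

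Col6a4 rose by 7.0 on the log2 scale, and 3 libraries carried the level. It was 221, 23.6 and 438 CPM in Gfi1 OE replicates 5, 6 and 7, between 0.276 and 2.74 CPM in the other 5, and up to 3.16 CPM in the controls, so the groups overlapped. Without replicates 5 and 7 the difference was 2.68 and was not called.

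**Figure D5:**
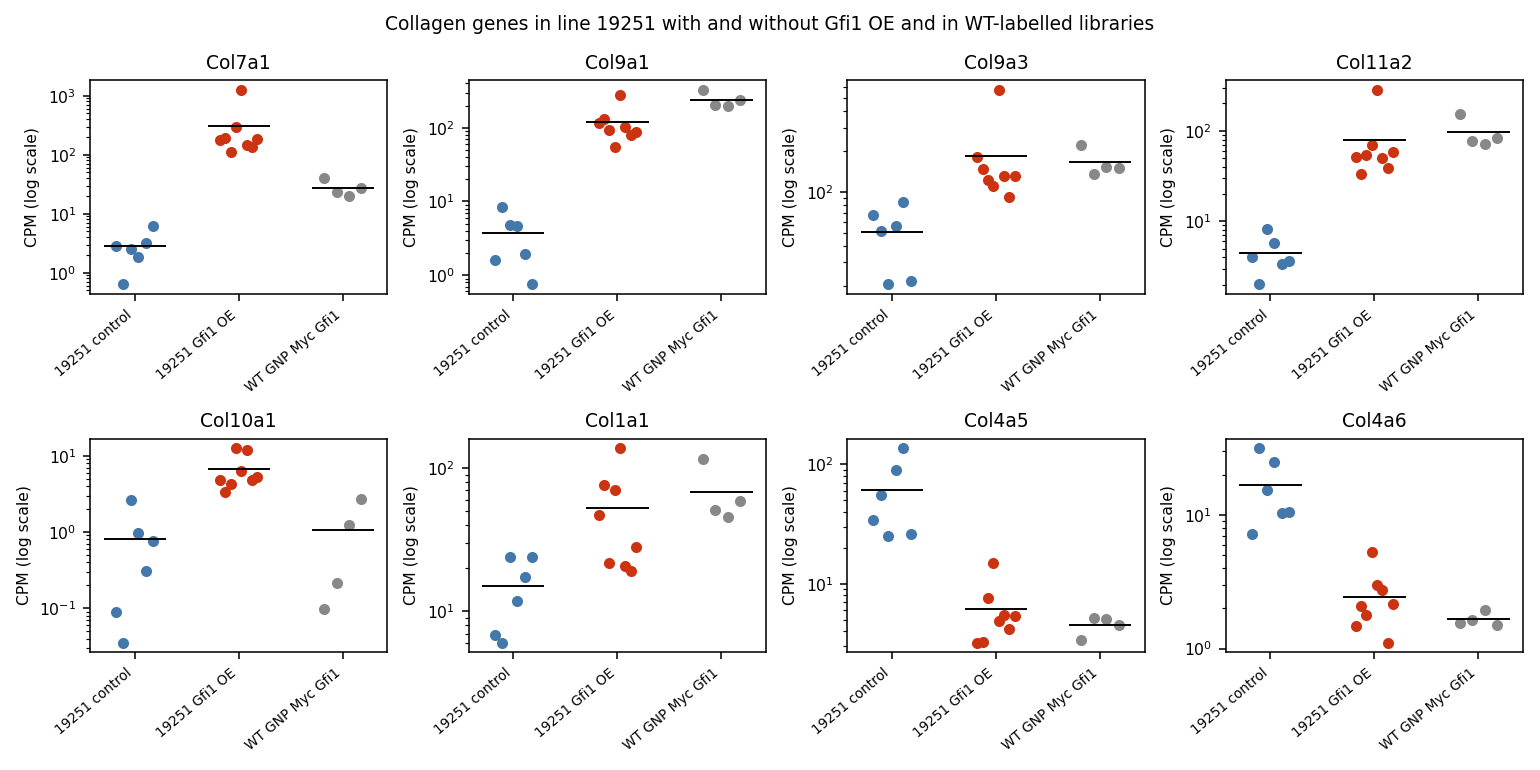
CPM (log scale) of 8 collagen genes in the 6 controls and 8 Gfi1 OE libraries of line 19251 and the 4 WT-labelled libraries, each point a library and black bars the mean. Col7a1, Col9a1, Col9a3, Col11a2 and Col10a1 do not overlap between control and Gfi1 OE, Col4a5 and Col4a6 are lower in Gfi1 OE, and the WT-labelled libraries hold less Col7a1 (20.3 to 40.4 CPM) than Gfi1 OE.

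The 3 members that fell were Col4a5, Col4a6 and Col11a1. Col4a5 and Col4a6, neighbours on chromosome X that encode basement membrane chains, ran from 24.9 to 136 CPM and 7.19 to 31.6 CPM in the controls and from 3.21 to 14.9 CPM and 1.11 to 5.25 CPM in Gfi1 OE. Neither overlapped between the groups. Col4a5 fell by a log2 value of 3.27 (SE 0.47, adjusted p = 0.000180, edgeR) and Col4a6 by 2.69 (SE 0.40, adjusted p = 0.000261, edgeR). The separation is from these controls. In the set 1 Cas9 libraries of line 19251, Col4a5 was 4.28, 32.9 and 10.8 CPM and Col4a6 was 2.005, 4.69 and 6.62. Both ranges overlapped with Gfi1 OE, and the first value of each is from the library with few cell cycle counts. Col4a1 and Col4a2, the chains of the common network, were not called, with medians of 103 and 52.4 CPM in Gfi1 OE and 124 and 61.0 in the controls. Col11a1 fell by 1.85, and its groups overlapped (18.8 to 41.3 CPM against 18.6 to 382).

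The promoters of the members that rose most with Gfi1 OE and have no overlap between the groups are shown. Each is the 250 bases before a RefSeq start (GRCm38.p6, 5′ to 3′ on the gene's own strand, here the plus strand throughout). Capitals mark the motifs searched on both strands, which are the GC box GGGCGG, the CCAAT box CCAAT, the TATA box TATAAA, the Gfi1 core AAATCA and the Sox core ACAATG. Col9a1 has 2 annotated starts.
Col7a1, chr9:108953336-108953585: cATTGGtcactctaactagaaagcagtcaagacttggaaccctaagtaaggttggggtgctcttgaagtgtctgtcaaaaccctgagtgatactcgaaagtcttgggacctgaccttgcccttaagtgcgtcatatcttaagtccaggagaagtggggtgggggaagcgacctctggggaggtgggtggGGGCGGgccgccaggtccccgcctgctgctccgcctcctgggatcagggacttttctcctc
Col9a1, first start, chr1:24177360-24177609: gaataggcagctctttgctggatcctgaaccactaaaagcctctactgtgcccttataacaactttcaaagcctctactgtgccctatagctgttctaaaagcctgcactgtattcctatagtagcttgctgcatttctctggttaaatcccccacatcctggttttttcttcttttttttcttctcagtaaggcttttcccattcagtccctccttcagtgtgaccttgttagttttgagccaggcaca
Col9a1, second start, chr1:24194953-24195202: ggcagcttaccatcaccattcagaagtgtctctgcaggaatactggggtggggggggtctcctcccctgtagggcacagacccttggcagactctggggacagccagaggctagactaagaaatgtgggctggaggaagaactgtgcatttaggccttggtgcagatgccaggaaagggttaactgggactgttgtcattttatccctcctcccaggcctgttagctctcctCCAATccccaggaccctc
Col11a2, chr17:34038888-34039137: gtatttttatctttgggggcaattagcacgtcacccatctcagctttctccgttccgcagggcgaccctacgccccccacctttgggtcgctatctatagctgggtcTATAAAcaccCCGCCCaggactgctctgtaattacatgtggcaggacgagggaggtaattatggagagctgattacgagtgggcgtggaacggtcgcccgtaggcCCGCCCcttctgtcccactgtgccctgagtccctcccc
Col10a1, chr10:34389731-34389980: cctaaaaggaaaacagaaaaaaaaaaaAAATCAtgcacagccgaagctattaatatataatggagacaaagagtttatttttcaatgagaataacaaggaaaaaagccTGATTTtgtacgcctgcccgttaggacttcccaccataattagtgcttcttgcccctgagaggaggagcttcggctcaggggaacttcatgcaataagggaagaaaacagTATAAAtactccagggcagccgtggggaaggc

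Of the 43 members 35 had a promoter window of 300 bases in the RefSeq table, 38 windows in all. The Gfi1 core was in 3 of the 38 (7.895%), those of Col10a1, Col5a1 and Col24a1, and in 14.0% of all 32851 windows. The GC box was in 23 of the 38 (60.53%) and in 35.66% of all windows. These 23 include overlapping windows of Col6a2, and those of Col4a1 and Col4a2, which share 78 bases. The CCAAT box was in 13 (34.21%, beside 37.41% of all). The TATA box was in 5 (13.16%, beside 13.62%) and the Sox core in 1 (2.632%, beside 12.57%). Of the sequences shown, Col10a1 held the Gfi1 core on each strand, and Col7a1, Col9a1 and Col11a2 held no match to it in these windows. The windows of Col4a5, Col4a6 and Col11a1, the members that fell, are not shown and held no match either. A match to these letters is a description and not a site of binding.

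In the other lists of collagen biology the counts are set beside the 24.6% of all genes called with Gfi1 OE, 11.1% higher and 13.5% lower. Of 12 tested genes of fibril partners and small proteoglycans 7 fell and 0 rose, led by the matrix proteins Thbs2 (-4.48), Fbn2 (-3.95) and Postn (-3.59). Of 16 basement membrane partners 3 rose, the laminin chains Lamb3 (4.70), Lamc3 (3.07) and Lama5 (1.21), and 5 fell, led by Hspg2 (-1.78). Of 10 receptors 3 fell, led by Mrc2 (-2.14) and Ddr2 (-2.08), and of 9 breakdown genes 2 fell, Mmp2 (-2.40) and Timp2 (-1.16). The biosynthesis list and that of propeptide removal and crosslinking had, like the breakdown genes, a share called near that of all genes. Of 17 biosynthesis genes 1 rose (Ppib, 0.60) and 3 fell, led by Plod2 (-2.54), the lysyl hydroxylase that prepares crosslinks. Of 12 genes of propeptide removal and crosslinking 1 rose (Tll1, 2.09) and 2 fell, Pcolce (-2.82) and Loxl4 (-2.01). Of 11 TGF-beta signalling genes 2 rose, Tgfb1 (1.63) and Tgfb3 (1.35), and 2 fell, Ctgf (-2.07) and Tgfbr2 (-1.34).

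Markers of host cells overlapped between these groups: fibroblast and meninges markers summed to 60.7 to 268.0 CPM in Gfi1 OE and 44.2 to 257.2 in the controls, and endothelial markers to 56.9 to 123.8 and 41.1 to 132.4. Granule neuron progenitor markers were lower in all Gfi1 OE libraries, at 84.4 to 214.8 CPM against 352.3 to 442.1, and their part in the collagen values was not tested.

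The 4 WT-labelled libraries were last compared with Gfi1 OE of line 19251, a comparison in which genotype, line and Gfi1 level cannot be told apart. Here 21 of 42 tested members were called, which is 50% of them beside 48.7% of all genes, 14 higher (21.9% of all genes) and 7 lower (26.8%). At an unadjusted p under 0.05 there were 24, beside 55.8% of all genes. Col2a1 was 761, 627, 644 and 707 CPM in the WT-labelled libraries and 8.69 to 157 with a median of 18.4 in Gfi1 OE. It was higher by a log2 value of 4.10 (SE 0.75, adjusted p = 0.000617, edgeR), with no overlap. Col4a1 was 2119, 2143, 2466 and 2356 CPM against 77.3 to 587, higher by 3.32. These levels lie within the 1098 to 3220 CPM of line 19568.

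The type VI chains Col6a1 and Col6a2 were higher by 3.06 and 3.87, the fibril-starting Col5a1 by 3.55 and the multiplexin Col18a1 by 2.97, each without overlap. Col7a1 was lower by 3.69, at 20.3 to 40.4 CPM against 110 to 1252, and Col6a4 was 0 in 3 of the 4 WT-labelled libraries. Because of these zeros the fitted difference of Col6a4 is not given as a size, and its call was lost without WT-labelled replicate 3. Of 17 biosynthesis genes 11 were higher and 1 lower, led by Creb3l1 (4.38), beside 21.9% and 26.8% of all genes, and the breakdown enzymes Mmp2 (5.56) and Mmp14 (3.83) were among 3 of 9 that were higher. Gli1 was 434.7 to 498.1 CPM in the WT-labelled libraries, within the 282.3 to 629.8 CPM of line 19568 and above the 3.15 to 236.8 CPM of Gfi1 OE. Granule neuron progenitor markers summed to 49.1 to 60.8 CPM against 84.4 to 214.8 in Gfi1 OE, oligodendrocyte markers to 95.7 to 201.7 against 211.6 to 502.2, and choroid plexus markers to 0.464 to 1.37 against 2.29 to 11.8, each without overlap. Their part in the collagen values was not tested.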

How the data were processed

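RNA sequencing counts per gene were deposited by the authors, 1 table for each of 48 libraries, as raw read counts that were not normalized. Per the submitters' processing notes, the build was mm9 and the tools were R 3.2.3, HTSeq, limma, BWA, STAR and CASAVA 1.7. Counts on genes had a median of 29416561 per library, and depth limits the genes of few counts. Rows that name no gene were left out of library sizes.

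CPM were computed from the counts on genes, and levels per kilobase from exon lengths of the GENCODE vM21 basic annotation. Groups were taken from the labels. Tests used edgeR 4.0.16 in R 4.3.3 (TMM factors, a low-count filter with a minimum count of 10, the quasi-likelihood F-test) with Benjamini-Hochberg adjustment over all tested genes. Separate fits were made for set 1, for 10 of the 12 libraries of set 2, and for each comparison of the Gfi1 experiment. The fit was tested on simulated counts. DESeq2 1.42.0, limma 3.58.1 (voom), other size factors and filters, a replicate block and fits without each library were tried as alternatives.

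The members, the gene lists and the 2 set 2 libraries left out, whose title numbers are crossed with those of their files, were chosen with earlier results of these data known. Named in each comparison were up to 8 called members by size of change with at least 1 CPM, the other called members where 5 or fewer, up to 3 genes of each list, and a fixed set of common chains. Of the 1128 library pairs 0 were identical. Deviations of same-numbered Cas9 and Ezh2 KO libraries correlated at 0.139 to 0.399 in line 19568 of set 1. In the other lines these correlations were -0.194 to 0.254. Only the replicate block used the numbers to pair libraries, and the main fits and the fits of a line alone did not.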

Additional observations from a re-analysis of the deposited data

Results flagged for a closer look

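Single libraries that stood far from the others of their group were looked for in 46 groups of values with 4 to 10 libraries each. The search found 13. The rule gives about 1 in 20 by chance only for values of a normal shape. Untransformed CPM need not have that shape, and several of the 13 share a library, so the count was not set against chance. In the Gfi1 OE group, replicate 5, the shallowest library, was far above the other 7 for Col7a1 (1252 CPM), Col11a2 (282 CPM), Col9a1 (279 CPM), Col2a1 (157 CPM) and Col13a1 (8.56 CPM). Gfi1 OE replicate 4 was far above the others for Col1a2 (120.4 CPM), Col18a1 (58.2 CPM), Col4a5 (14.95 CPM) and Col4a6 (5.25 CPM).

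Among the controls, replicate 3 was far above the others for Col10a1 (2.64 CPM) and Col13a1 (1.32 CPM), and replicate 1 for Col6a4 (3.155 CPM). Among the WT-labelled libraries Col6a4 had counts in replicate 3 alone (0.0325 CPM).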

How the results depend on the processing

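The count of called collagen genes was the result most open to the processing. For Ezh2 KO over the 3 lines, 0 became 2 without a low-count filter and 1 under limma-voom, DESeq2 or with 2 libraries that stand apart left out, and 0 to 1 when each library was left out. For line 19251, 1 became 0 with RLE factors, limma-voom or the line alone, 10 under DESeq2 and 3 without the 2 libraries (0 to 3 leaving out each). For line 19554, 0 became 6 under DESeq2 and 2 without the 2 libraries (0 to 2), and for line 19568 it became 3 with the line alone (0 to 0). The difference of the Ezh2 KO effect went from 0 to 7 under DESeq2 (0 to 2). Differences between lines in Cas9 went from 13 to 20 under DESeq2 and without the 2 libraries (6 to 15), and in Ezh2 KO from 9 to 20 and 22 (5 to 16).

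In set 2, Ezh2 KO against Cas9 went from 11 to 27 without a filter and 2 with all 12 libraries as labelled (4 to 16 leaving out each). Ezh2 OE went from 0 to 3 without a filter (0 to 0). Rescue against Ezh2 KO went from 4 to 19 without a filter, 9 under DESeq2, 1 with all 12 libraries and 2 with the replicate block (0 to 9). Rescue against Cas9 went from 11 to 23 without a filter, 18 under DESeq2 and 0 with all 12 libraries (2 to 16). With the replicate block, Ezh2 KO against Cas9 had 8 calls and rescue against Cas9 had 8. The counts of 12 for Gfi1 OE and 21 for the WT-labelled libraries stayed within 1.5 times under each alternative run. Col8a2 turned from 1.31 to -0.14 between Ezh2 KO and Cas9 with all 12 libraries. The cause was not tested. In set 1 the replicate block left the counts at 0 over the 3 lines, 1 in 19251, 0 in 19554 and 0 in 19568. No block was fitted for the Gfi1 comparisons, whose titles give no distinct shared numbers, or between lines, where the number is nested in the line. The alternatives line alone and 2 libraries left out were chosen after seeing the data.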
